A study of Mus musculus with 12 samples.

Results

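The potassium channel genes of the mouse array were described in the geniculate ganglion at embryonic day 14.5. This cranial ganglion supplies the taste buds of the front of the tongue and palate. A member was any gene whose probe set carried a single symbol that starts with Kcn, then letters and a number. This rule took 84 of the 18193 genes on the array, measured by 167 probe sets. For 38 genes there was 1 probe set, and the other 46 had between 2 and 6. A gene with several was represented by its brightest, the one with the highest mean log2 intensity over all arrays. The members comprised 31 pore subunits of voltage-gated channels, 15 inward rectifiers, 12 tandem-pore leak channels, 8 pore subunits of channels gated by calcium, sodium or pH, 15 auxiliary subunits and 3 non-coding transcripts.

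The 12 arrays formed 4 groups of 3: Bdnf knockout ganglia on the C57BL/6J background, their C57BL/6J wild type, Ntf5 (NT4) knockout ganglia on the 129 background, and their 129 wild type. BDNF and NT4 are neurotrophins that act through the same receptor tyrosine kinase, TrkB, and the study compared what the loss of each does to gene expression in the ganglion. Wild type and knockout of a line shared a strain, and the lines did not, so line, strain, colony and the match of a probe to the strain's sequence cannot be told apart in any comparison between lines. The arrays of a group were labelled biological replicates. The number of embryos behind each RNA sample and the deleted part of each gene are not given in the sources used here, and p-values measure the spread between these samples.

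Potassium channels set the resting potential of a neuron and end its action potentials. Each voltage-gated channel is built of pore subunits, often with auxiliary subunits that alter gating or traffic. Inward rectifiers and tandem-pore channels hold the membrane near rest, and calcium-activated channels shape the pause after a spike. In sensory ganglia these channels set how readily a neuron fires and whether it fires once or in trains.

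Array medians lay between 167.7 and 201.0, and replicates of a group correlated at 0.967 to 0.985 on the log2 scale, against 0.919 to 0.945 for arrays of different lines. Summed neuronal markers lay between 105800 and 128900 intensity units over all arrays, and all 15 measured neuronal markers exceeded 200 in every group. One Bdnf probe set averaged 25.1 in the BDNF knockout and 233 in its wild type (log2 change -3.18, SE 0.25, adjusted p = 0.00176). The other averaged 315 ± 35.3 in the knockout and 262 ± 16.2 in the wild type (SD, n = 3 each). The Ntf5 probe set read 38.6 ± 3.29 in the NT4 knockout and 41.1 ± 6.56 in its wild type (SD, n = 3 each), and with the deleted part not given it does not check the NT4 labels. Replicate 2 of each wild type stood apart in sex-linked genes, with a log2 difference between Xist and the Y-linked genes of 7.92 (129) and 8.09 (C57BL/6J), against 2.79 to 5.09 on the other arrays. Results are therefore also given without these 2 arrays where a call depends on them.

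The first question was which channel genes gave a signal in wild-type ganglia. A threshold of 200 was used, close to the array medians. Signals of different probe sets are not amounts that can be set against each other, since probes differ in how strongly they bind. The mean signal was above 200 for 36 members in the NT4 knockout and 38 (45.2%) in its 129 wild type, where the shares of all genes were 60.6% and 59.6%. It was above 200 for 37 members in the BDNF knockout and 38 (45.2%) in its C57BL/6J wild type, where the shares of all genes were 59.6% and 59.8%. Both wild types exceeded the threshold for 34 members, and neither did for 42. A lower share of channel genes than of all genes thus gave a signal above 200 in each group.

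Genes of the voltage-gated pore subunits were above 200 in at least 1 wild type for 18 of 31. They included 5 of the 7 Shaker family genes (Kcna1, Kcna2, Kcna4, Kcna5 and Kcna6), a family known for channels that open at low voltage and limit repetitive firing. Kcna1 read 1751, 1034 and 1166 in BDNF knockouts, against 1561, 1187 and 1406 in BDNF-line wild types. In the NT4 line Kcna1 read 925, 728 and 1265 in knockouts and 1048, 1094 and 1281 in wild types, so knockout and wild-type arrays overlapped in each line on this probe set. All 3 measured Shaw family genes, which encode fast, high-threshold channels that repolarise the spike, passed 200 in the C57BL/6J wild type. Of these, Kcnc4 lay between 2313 and 3654 over the 12 arrays and Kcnc1 between 745 and 1646.

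Kcnd1 and Kcnd3, of the Shal family that carries rapidly inactivating A-type current, also exceeded 200 in both wild types, whereas Kcnd2 did not. The M-current subunit genes Kcnq3 and Kcnq5 were above 200, with Kcnq3 between 870 and 1847 over all arrays, and Kcnq1, known from heart and epithelia, was below. Kcnq5 read 188, 513 and 176 in C57BL/6J wild types. Its mean there exceeded 200 only through replicate 2, an array that stood apart in sex-linked genes. The ether-a-go-go relatives above 200 were 4 of 6 (Kcnh1, Kcnh2, Kcnh3 and Kcnh7), with Kcnh1 at 928 ± 58.9 in 129 and 1298 ± 88.2 in C57BL/6J wild types (SD, n = 3 each). Of the 9 genes for electrically silent subunits, which form channels only together with other subunits, 2 were above 200 (Kcng2 and Kcns2).

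The calcium-gated channel genes above 200 in both wild types were Kcnma1, the large-conductance BK channel, Kcnn1 and Kcnn3, small-conductance channels that hyperpolarise the cell after a spike, and Kcnn4, the intermediate-conductance channel. Kcnma1 had a mean of 643 ± 109 in 129 and 978 ± 342 in C57BL/6J wild types (SD, n = 3 each). Both neuronal BK auxiliary subunit genes were above the threshold too. Kcnmb4 lay between 1415 and 2007 over the 12 arrays and Kcnmb2, whose product makes the BK channel inactivate, between 481 and 1339. Auxiliary genes above 200 in both wild types further included Kcnab1 and Kcnab2, the beta subunits of Shaker channels, and Kcnip1, a calcium sensor of Shal channels.

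Among inward rectifiers 6 of 15 were above 200 in at least 1 wild type. Kcnj3, a channel opened by G proteins, lay between 1848 and 3447 over the 12 arrays. Kcnj8 and Kcnj11, the pores of ATP-sensitive channels, and Kcnj12, a classical strong rectifier, were at 244 to 372 in both wild types. The glial inward rectifier gene Kcnj10 was below 200 in both. Of the 12 tandem-pore genes, Kcnk1, Kcnk2 and Kcnk10 were above 200 in both wild types, the last 2 being mechanosensitive leak channels of the TREK group. Kcnk10 lay between 783 and 1542 over all arrays.

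**Figure D1:**
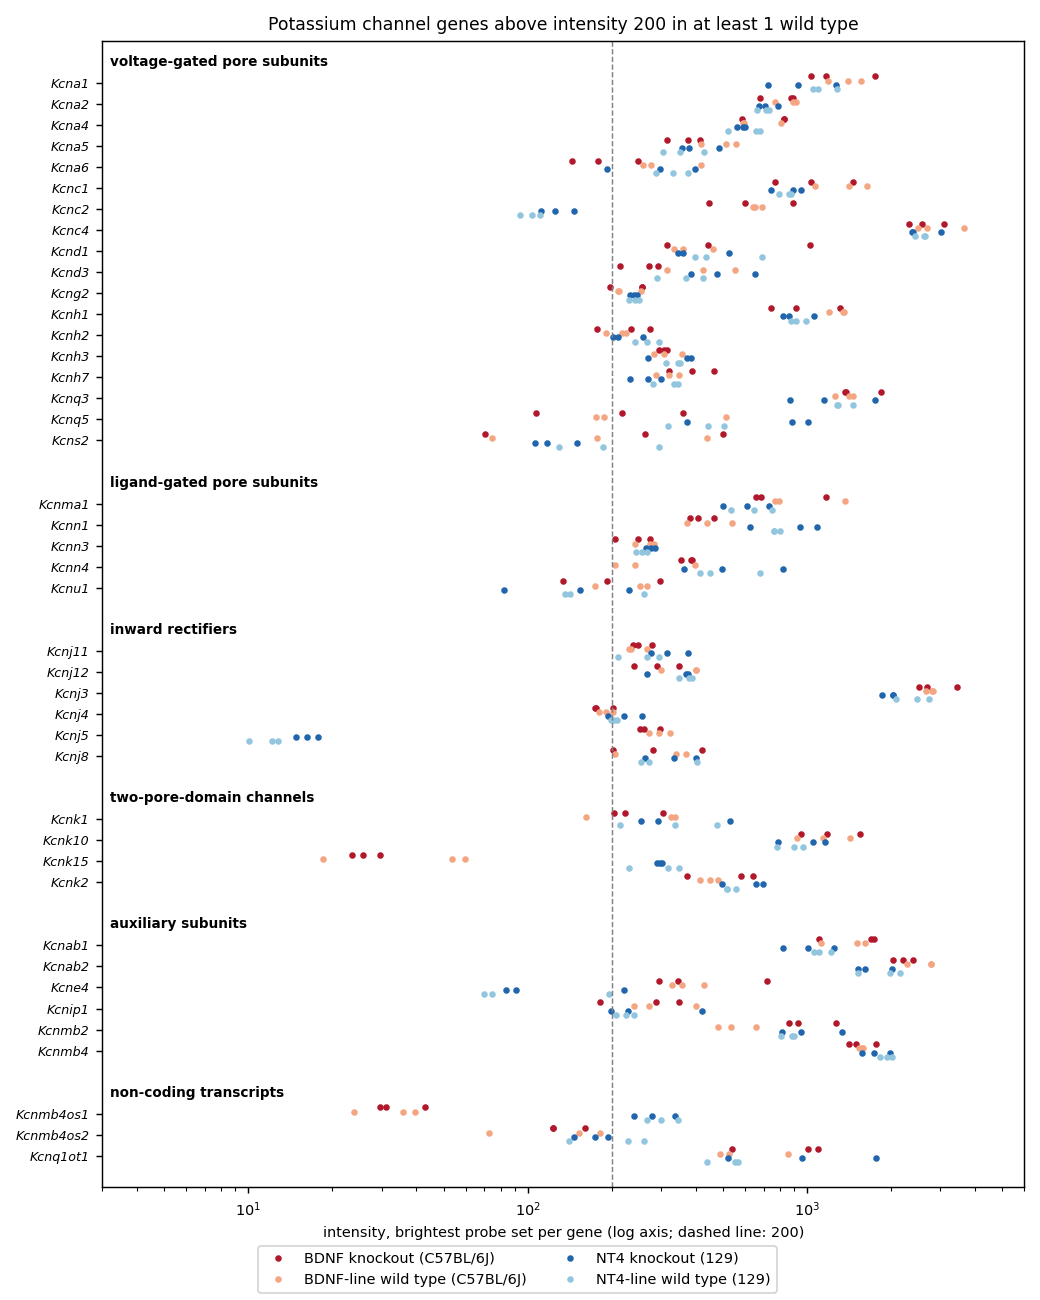
Intensity (log axis) on each of the 12 arrays for the 42 potassium channel genes with a mean above 200 in at least 1 wild type, grouped by the class of their product; each point is 1 array and the dashed line marks 200. Kcnj5, Kcnc2, Kcne4, Kcnk15, Kcnn1 and Kcnmb4os1 split by line, whereas the points of genes such as Kcnc4 and Kcna1 overlap in all 4 groups.

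Some members lay close to the threshold on either side. Kcnj4 averaged 203.9 ± 4.93 in 129 and 191.3 ± 10.5 in C57BL/6J wild types (SD, n = 3 each), and Kcns2 averaged 203.4 in 129 wild types with a spread of 129 to 295. Just below lay Kcnk3, a TASK leak channel, at 190 in the 129 and 166 in the C57BL/6J wild type. Kcnu1, a pH-gated channel of sperm, read 180 ± 71.2 in 129 and 232 ± 50.8 in C57BL/6J wild types (SD, n = 3 each). In each of these the arrays of the wild types overlapped.

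Start-site sequence was set beside these levels. RefSeq promoter windows (build GRCm38.p6, from 250 bases before to 50 after the start) were found for 64 members. For a gene with several starts only the most upstream one was used. A window with 15 or more CG dinucleotides was present for 14 of the 33 members above 200 in at least 1 wild type (42.4%) and 11 of the 31 below it in both (35.5%). Over all genes with a window the shares were 73.2% above and 25.8% below. The letters TATAAA, on either strand, were in none of the 33 windows of members above 200 and in 3 of the 31 others, against 6.61% and 15.6% of all genes. The window with the most CG among members above 200 and 1 of the 2 with the fewest are shown, both from chromosome 10, with every CG in capitals. Kcnmb4 (chr10:116473474-116473773, minus strand) holds 48 and Kcnc2 (chr10:112269767-112270066, plus strand) holds 3, as does that of Kcnq5.
Kcnmb4: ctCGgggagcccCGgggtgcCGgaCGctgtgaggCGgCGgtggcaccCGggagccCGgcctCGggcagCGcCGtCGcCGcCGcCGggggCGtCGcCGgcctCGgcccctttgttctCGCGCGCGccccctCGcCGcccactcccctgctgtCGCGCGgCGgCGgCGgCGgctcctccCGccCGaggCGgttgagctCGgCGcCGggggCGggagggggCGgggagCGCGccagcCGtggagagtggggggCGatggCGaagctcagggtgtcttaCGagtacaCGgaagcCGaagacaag
Kcnc2: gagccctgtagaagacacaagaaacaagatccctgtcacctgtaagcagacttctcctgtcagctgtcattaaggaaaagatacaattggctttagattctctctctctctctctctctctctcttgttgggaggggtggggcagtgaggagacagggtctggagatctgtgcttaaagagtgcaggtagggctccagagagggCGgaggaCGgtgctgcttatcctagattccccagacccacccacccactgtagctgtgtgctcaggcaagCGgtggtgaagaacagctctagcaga

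The loss of BDNF was compared with its own wild type. None of the 84 members passed the threshold of an adjusted p of 0.05, and the lowest adjusted p of a member was 0.297. Over the whole array 8 of 45037 probe sets passed (0.0178%). The members' median log2 change was -0.05, against -0.02 for all genes, and 38 of the 42 members above 200 in a wild type lay within 0.5 of no change. At an unadjusted p under 0.05 there were 10 members, or 11.9%, against 6.09% of all genes. Of these, 4 had a higher mean in the knockout (2.16% of all genes did) and 6 a lower one (3.93% of all genes). Knockout arrays lay wholly above wild-type arrays for 5 members and wholly below for 6, against 4.19% and 6.81% of all genes. Without the 2 wild-type arrays that stood apart, 8 members were under an unadjusted p of 0.05, and the share of all genes in that setting was not counted.

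Among members above 200, Kcnmb2 had the lowest unadjusted p. It read 1267, 863 and 926 in BDNF knockouts, against 536, 658 and 481 in BDNF-line wild types. Every knockout array lay above every wild-type array, and the log2 difference was 0.86 (SE 0.21, adjusted p = 0.385). The gene's second probe set differed by 0.65, with overlapping arrays. Kcnn4, Kcnd1, Kcnq1ot1 and Kcnh7 followed with differences of 0.28 to 0.47, all with overlapping arrays. The value of Kcnd1 rested on 1 array, at -0.0261 without BDNF knockout replicate 3, and its other probe sets differed by -0.57 (unadjusted p = 0.0278, adjusted p = 0.664) and 0.08. The second probe set of Kcnn4 differed by -0.29, and the other 5 of Kcnq1ot1 by -0.39 to 0.50.

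Among members with lower means in the BDNF knockout, none past the threshold, were Kcnd3, Kcna6 and Kcna5. Their families did not share a direction: the 7 Shaker genes had a median log2 change of -0.08, with Kcna3 at 0.28, and the other Shal genes were at 0.46 (Kcnd1) and -2.62 (Kcnd2). Kcnd3 read 214, 292 and 271 in BDNF knockouts, against 315, 554 and 425 in BDNF-line wild types, a log2 difference of -0.71 (SE 0.25, adjusted p = 0.618). All knockout arrays lay below all wild-type arrays on this probe set, and the other 3 probe sets of Kcnd3 differed by -0.56, -0.47 and -0.03 with overlap. Kcna6 read 145, 179 and 249 in BDNF knockouts and 416, 276 and 258 in wild types, a difference of -0.73 (SE 0.29). Its other 2 probe sets differed by -0.50 and -0.44, and on each of the 3 the groups did not overlap. One of these 2 was dim, at 18.3 in BDNF knockouts and 26.2 in wild types, and values under 20 have little meaning.

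Kcna5 differed by -0.43 and Kcnh1, the ether-a-go-go channel, by -0.43, the first without and the second with overlapping arrays. The second probe set of Kcnh1 differed by -0.05. Some dim members differed by more. Kcnk6, a TWIK-type leak channel, read 152, 179 and 136 in BDNF knockouts, against 23.7, 58.9 and 47.6 in wild types (1.93, SE 0.41, adjusted p = 0.297). It was the only member in the BDNF list of the authors' deposited table, with a fold of 3.59 and an unadjusted p of 0.002661. Kcnd2 read 18.6, 21.0 and 6.70 in BDNF knockouts and 163, 24.5 and 152 in wild types, a difference of -2.62 (SE 0.69, adjusted p = 0.453) with the lowest wild-type array close to the highest knockout array and a knockout mean under 20. Its other probe sets, all dim, differed by less. They averaged 30.0, 16.3 and 24.4 in BDNF knockouts, against 41.9, 16.8 and 31.4 in wild types.

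The loss of NT4 likewise left no member past the threshold, the lowest adjusted p being 0.818. Over the array 2 of 45037 probe sets passed (0.00444%). The median log2 change of the members was 0.10, against 0.03 for all genes, and 39 of the 42 members above 200 in a wild type lay within 0.5 of no change. At an unadjusted p under 0.05, 3 members had a higher mean in the knockout (3.08% of all genes) and 0 a lower one (1.54%). The 3 were Kcnj5, Kcnf1 and Kcnv2, all below 200 in the 129 wild type. Means were under 20 in knockout and wild type for Kcnj5 (16.2 and 11.7) and Kcnv2 (4.81 and 1.77), where values have little meaning. The number was 6 without NT4 knockout replicate 1, 7 without NT4 knockout replicate 2, 5 without BDNF knockout replicate 2, and 2 without the 2 wild-type arrays that stood apart. The shares of all genes under these settings were not counted, so these numbers cannot be set against the array. Knockout arrays lay wholly above wild-type arrays for 10 members and wholly below for 2, against 6.71% and 4.77% of all genes.

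Kcnq1ot1, the imprinted antisense RNA of the Kcnq1 locus, read 957, 522 and 1766 in NT4 knockouts, against 437, 551 and 567 in NT4-line wild types. One knockout array lay within the wild-type range, and the difference was 0.90 (SE 0.42, adjusted p = 0.894). The gene's other probe sets also had higher means in NT4 knockouts. They averaged 609, 179, 178, 152 and 138 there, against 356, 116, 132, 79.2 and 126 in NT4-line wild types. Kcnq1 itself differed by 0.18. Kcnj3 read 2036, 2035 and 1848 in NT4 knockouts, against 2476, 2740 and 2076 in wild types, a difference of -0.29 (SE 0.14, adjusted p = 0.895). Its knockout arrays all lay below its wild-type arrays, as they did for no other member above 200 when the brightest probe sets were read. On a Kcna1 probe set that was not the brightest they also did, at 493 ± 60.2 in NT4 knockouts and 608 ± 27.4 in wild types (SD, n = 3 each).

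The dimmest probe set of Kcnj3 and a dim one of Kcnj6, another G protein-gated rectifier, were the members' entries in the NT4 list of the authors' deposited table, with folds of -1.87 and -2.1 and unadjusted p-values of 0.038846 and 0.018899. The log2 differences of the other 2 probe sets of Kcnj3 that were not the brightest were -0.27 and -0.18. Kcnq5 differed by 0.74 (SE 0.55), with 371 on 1 NT4 knockout array and 883 and 1004 on the others, against 318 to 504 in wild types. Another probe set of Kcnq5 had a lower mean in NT4 knockouts, at 218 ± 19.9 against 245 ± 15.4 in wild types. A dim one averaged 85.2 ± 28.6 and 58.3 ± 9.49 (SD, n = 3 each). Kcnd3 differed by 0.46, Kcnj11 by 0.33, Kcnh2 by -0.27 and Kcnh7 by -0.26, none past the threshold.

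**Figure D2:**
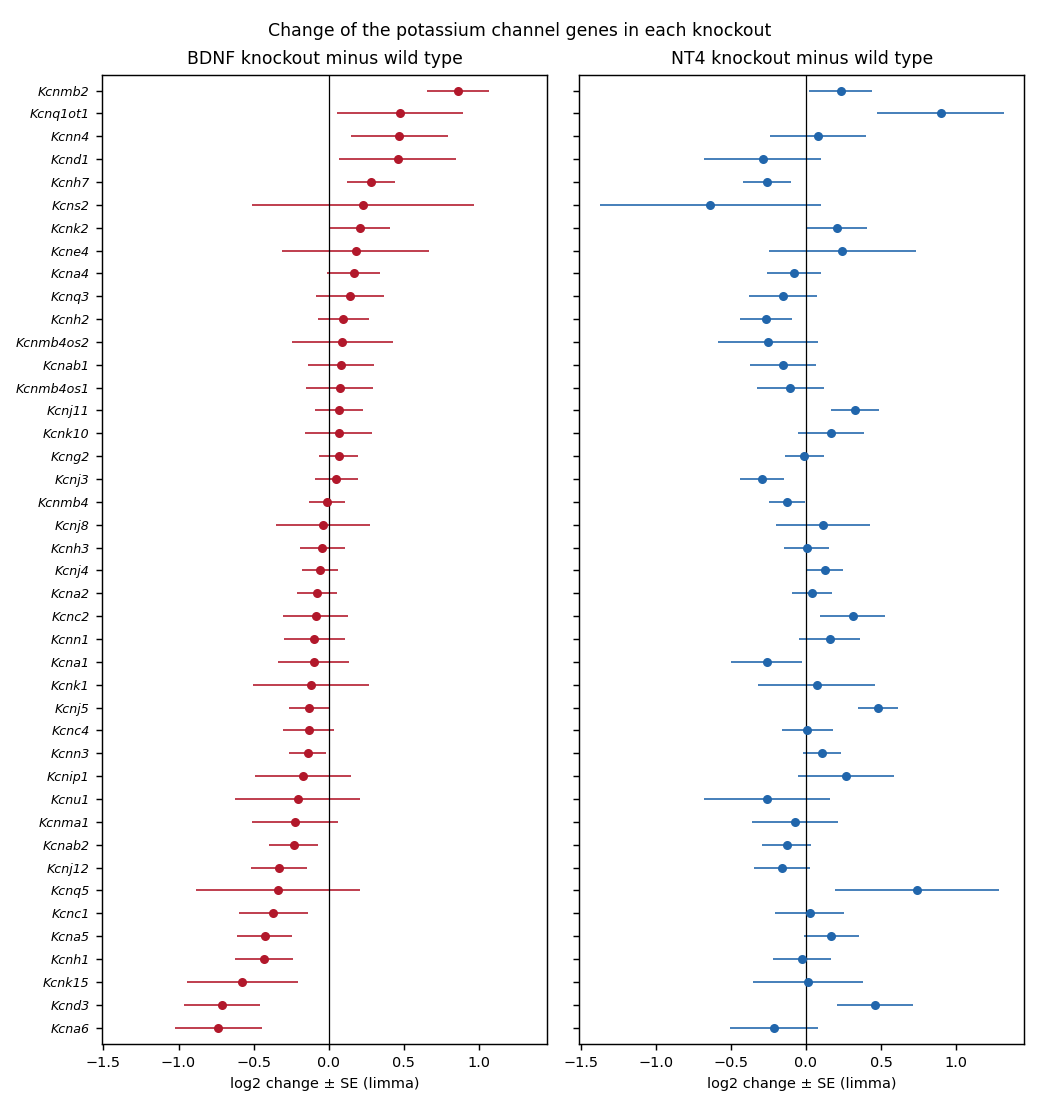
Log2 change with its standard error for the 42 members above 200 in at least 1 wild type, in the BDNF knockout (left) and the NT4 knockout (right), each against its own wild type and in the order of the BDNF change. None passed the adjusted threshold; Kcnmb2 at 0.86 and Kcna6 at -0.73 mark the ends on the left.

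Whether the 2 knockouts differed in effect was tested directly. No member passed, with a lowest adjusted p of 0.751, against 5 of 45037 probe sets over the array (0.0111%). At an unadjusted p under 0.05 there were 7 members (8.33%, against 4.96% of all genes). The BDNF change minus the NT4 change was -1.17 for Kcnd3 (SE 0.36, adjusted p = 0.751), -0.60 for Kcna5 and 0.54 for Kcnh7. For Kcnj5 it was -0.61, but both NT4-line means were under 20, and with values under 20 set to 20 it was -0.13. On its brightest probe set Kcnd3 thus had a lower mean in BDNF knockouts and a higher one in NT4 knockouts, and neither effect nor their difference passed. Its other probe sets did not share a direction in the NT4 line. They averaged 171, 163 and 41.5 in NT4 knockouts, against 116, 179 and 51.4 in NT4-line wild types.

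A gene near a targeted gene can keep the strain of the stem cells in which the deletion was made, so members beside Bdnf and Ntf5 were examined. Kcna4 lay 3 measured genes from Bdnf on chromosome 2 and differed by 0.17 in the BDNF knockout (745 ± 137 against 663 ± 122 in the wild type, SD, n = 3 each). Kcna7 was the next measured gene to Ntf5 on chromosome 7 and differed by 0.10 in the NT4 knockout. Kcnj14, Kcnj11 and Kcnc1, within 60 measured genes of Ntf5, differed by -0.02, 0.33 and 0.03 in the NT4 knockout, and none of these genes passed. Order along the chromosome was taken from GRCm38.p6.

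Partners of these channels were counted in the same way. None of the 13 measured genes that cluster Shaker channels at the axon, of 10 other channel partners or of 2 pacemaker channel genes passed in either knockout. The cell adhesion gene Cntn2, which holds Shaker channels beside the node of Ranvier, differed by -0.43 in the BDNF knockout (unadjusted p = 0.00778, adjusted p = 0.531). In the same comparison Ank3, of the same list, differed by -0.33 (unadjusted p = 0.0481, adjusted p = 0.743). Vapb, of the other channel partners, differed by -0.52 (unadjusted p = 0.00325, adjusted p = 0.453). Summed markers of other cells differed with genotype in places. Summed macrophage markers were 2465 to 3397 in BDNF knockouts and 1974 to 2147 in their wild types, and 3054 to 4500 in NT4 knockouts against 1403 to 2245 in theirs, with 4 of the 6 markers above 200 in every group. No macrophage marker passed in either knockout. In BDNF knockouts Ptprc differed by 1.57, Csf1r by 1.38, Tyrobp by 0.49, C1qb by 0.16, Aif1 by 0.07 and Cd68 by -0.44. In NT4 knockouts all differed by 0.07 (Cd68) to 1.36 (Csf1r). Summed noradrenergic markers were 1375 to 1567 in NT4 knockouts and 2820 to 2936 in their wild types, with 2 of 4 markers above 200 in each. The 4 markers did not share a direction. The noradrenaline transporter gene Slc6a2 fell by 1.25 in NT4 knockouts (adjusted p = 0.0113), with means of 911 in knockouts and 2172 in wild types. Th differed by -0.51 without passing, and Dbh and Hand2 differed by 0.01 and 0.11. The part of these marker differences in the channel values was not tested, and in whole ganglia fewer cells of a type and less RNA per cell cannot be told apart.

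The 2 wild types differed in more members than either knockout did from its own. Between 129 (NT4 line) and C57BL/6J (BDNF line) wild types, 10 of 84 members passed the adjusted threshold (11.9%), against 13.6% of all genes and 13.9% of all probe sets. The members' share was therefore near that of the array as a whole. In 129 ganglia 5 were higher (Kcnmb4os1, Kcnk15, Kcne2, Kcnn1 and Kcnk7) and 5 lower (Kcnj5, Kcnh5, Kcnc2, Kcne4 and Kcnk12), against 5.75% of all genes higher and 7.86% lower. Arrays of the wild types did not overlap for 28 members, against 35.4% of all genes.

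Kcnj5, which encodes the G protein-gated rectifier that pairs with the Kcnj3 product in heart atria, had the greatest absolute log2 difference among the members' brightest probe sets. It read 12.8, 12.2 and 10.1 in 129 wild types, against 295, 322 and 272 in C57BL/6J wild types (-4.67, SE 0.13, adjusted p = 1.98e-08). The knockouts lay on the same sides, at 16.2, 17.8 and 14.8 in the NT4 line and 261, 252 and 299 in the BDNF line. The second probe set of Kcnj5 was dim in all groups (31.8 in 129 and 41.4 in C57BL/6J wild types) and differed by -0.38, which did not pass. With values under 20 set to 20 the brighter probe set still differed by -3.89.

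Kcnc2, a Shaw family gene of fast-spiking neurons, read 104, 111 and 94.3 in 129 wild types, against 651, 688 and 639 in C57BL/6J wild types (-2.68, SE 0.22, adjusted p = 1.15e-05). Its relatives Kcnc1 and Kcnc4 differed by -0.69 and -0.18 and did not pass. Kcne4, whose product inhibits several voltage-gated channels, read 69.7, 74.5 and 195 in 129 and 329, 429 and 356 in C57BL/6J wild types (-1.88, SE 0.49, adjusted p = 0.0271). The groups did not overlap, but without replicate 2 of both wild types the adjusted p was 0.215. Kcnk12, a silent or weakly active leak channel, was lower by a log2 difference of -1.20 at 59.4 ± 8.68 in 129 and 136 ± 14.2 in C57BL/6J wild types (SD, n = 3 each, limma adjusted p = 0.000185). Kcnh5 was lower by -2.81, at 3.48 to 7.03 in 129 and 11.1 to 75.7 in C57BL/6J wild types, and with values under 20 set to 20 the difference was -1.04 and did not pass (adjusted p = 0.113).

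Kcnmb4os1, a non-coding transcript from the strand opposite Kcnmb4, read 346, 301 and 268 in 129 wild types, against 24.0, 35.9 and 39.7 in C57BL/6J wild types (3.22, SE 0.22, adjusted p = 4.02e-06). Kcnmb4 itself differed by 0.29 (adjusted p = 0.16) and the other opposite-strand transcript, Kcnmb4os2, by 0.69 (adjusted p = 0.24). Kcnk15, a leak channel of the TASK group, read 317, 347 and 231 in 129 and 53.8, 18.6 and 59.6 in C57BL/6J wild types (2.91, SE 0.37, adjusted p = 0.000272). For both genes all 129 arrays lay above all C57BL/6J arrays, knockouts included. Kcnn1 read 760, 798 and 760 in 129 and 439, 372 and 537 in C57BL/6J wild types (0.80, SE 0.20, adjusted p = 0.0237), while its second probe set differed by -0.74 without passing.

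Kcne2, an auxiliary subunit of ether-a-go-go and KCNQ channels, was higher by 0.89 and Kcnk7, a leak channel relative with no known current, by 0.73, both with means under 150 in every group. Without replicate 2 of both wild types 7 members passed, and Kcnn1 (0.65, adjusted p = 0.196), Kcne4 and Kcnk7 (0.87, adjusted p = 0.0545) did not. Single arrays also ended these 3 calls. Kcnn1 did not pass with any 1 wild-type array left out except C57BL/6J replicate 3 (adjusted p = 0.0639 to 0.0882). Kcne4 did not pass with any 1 wild-type array left out except 129 replicate 3 (adjusted p = 0.0577 to 0.105). Kcnk7 did not pass without 129 replicate 2 (0.0607), 129 replicate 3 (0.0992) or C57BL/6J replicate 3 (0.0735). Kcnj5, Kcnc2, Kcnk12, Kcnk15, Kcnmb4os1 and Kcne2 passed under all alternatives that gave a value.

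**Figure D3:**
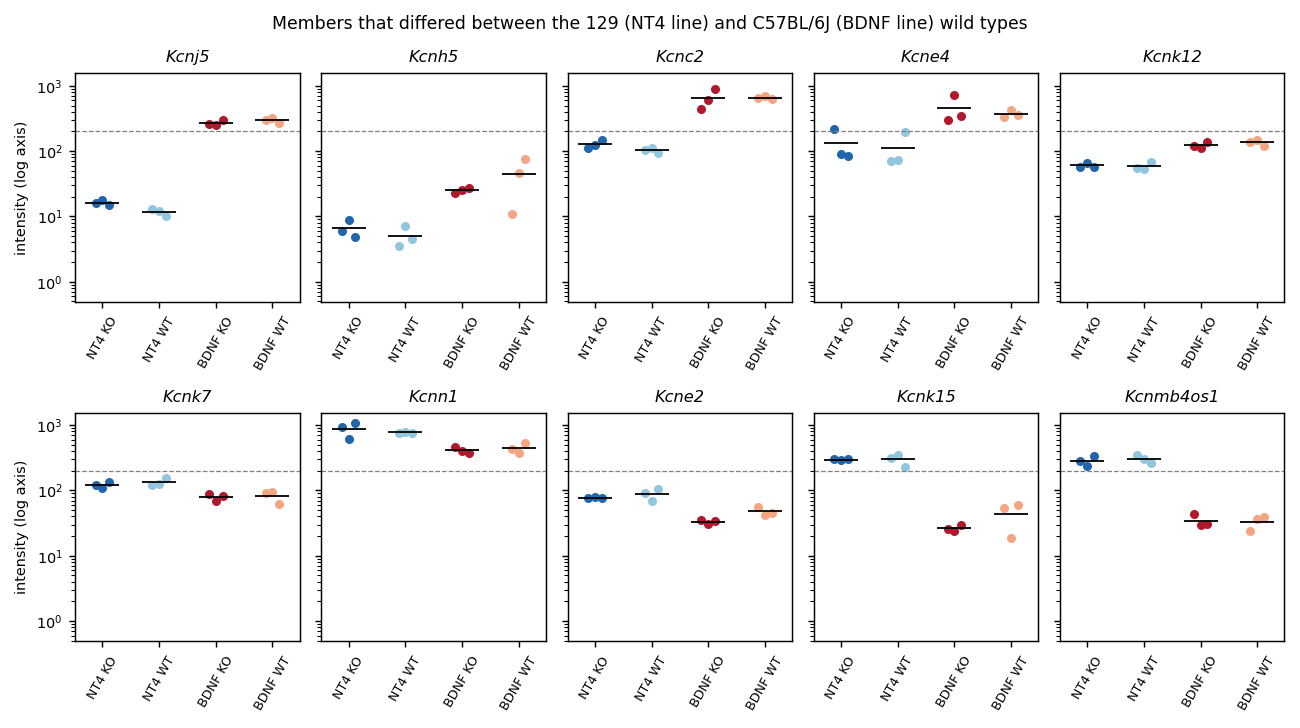
Intensity (log axis) on each array for the 10 members that passed the adjusted threshold between the 129 (NT4 line) and C57BL/6J (BDNF line) wild types, with knockout left of wild type in each line; bars are means of 3 arrays and the dashed line marks 200. In each panel the knockout arrays sit on the same side as the wild types of their line, for example below 20 for Kcnj5 in the NT4 line.

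The knockout arrays were compared between the lines in turn, a comparison added after the wild-type result was known. It is not independent of the wild-type comparison, since both took their residual spread from all 12 arrays and the brightest probe set was chosen over all of them. All 10 members differed in the same direction between NT4 knockouts and BDNF knockouts at an adjusted p under 0.05. Of all genes that differed between the wild types, 76.4% did so. Kcnj5 differed by -4.06, Kcnc2 by -2.29, Kcnk15 by 3.50 and Kcnmb4os1 by 3.05 between the knockouts. In all 14 members passed there, 6 higher in NT4 knockouts (6.98% of all genes) and 8 lower (7.97%), and the other 4 were Kcnd3 (0.93), Kcnj3 (-0.54), Kcnh7 (-0.54) and Kcnj16 (-1.35). The probe sets of Kcnd3 that were not the brightest differed by 0.47, 0.40 and -0.44. The last of these passed in the opposite direction (limma adjusted p = 0.0289). The second probe set of Kcnj16 differed by 0.43, opposite to the brightest, and did not pass.

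Marker and partner genes were read between the wild types as well, where 13.6% of all genes passed. The transcription factor genes Pou4f1, of somatosensory neurons, and Phox2a, of visceral neurons, were lower in 129 wild types by log2 differences of -1.46 and -1.55 (adjusted p = 6.72e-05 and 7.33e-06). These were the 2 of 15 neuronal markers that passed, a share near that of all genes. Of the channel partners, 0 of 13 for Shaker clustering, 1 of 10 others and 1 of 2 pacemaker genes passed. The pacemaker channel gene Hcn2 was lower by -1.12, at 149 ± 10.4 in 129 and 324 ± 18.7 in C57BL/6J wild types (SD, n = 3 each). Lrrc52, the auxiliary subunit of the Kcnu1 channel, was lower by -2.63, at 9.25 ± 3.12 in 129 and 86.2 ± 97.4 in C57BL/6J wild types (SD, n = 3 each, limma adjusted p = 0.0323), so the C57BL/6J arrays were widely spread and the 129 mean was under 20. Markers of other cells that passed were Slc6a2 (-1.43, 1 of 4 noradrenergic markers), Rgs5 (-1.97, 1 of 6 of endothelium and pericytes), Foxd3 (1.03, 1 of 6 of glia), and Lmx1a (-2.98), Otoa (-0.95) and Tecta (1.34), 3 of 5 of inner ear epithelium. These 3 inner ear markers were below 200 in both wild types, and Lmx1a averaged 9.61 in 129 and 75.4 in C57BL/6J wild types. None passed of 6 cartilage, 7 connective tissue, 6 macrophage, 5 skeletal muscle and 4 red cell markers. The part of these shifts in the channel values was not tested.

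A gene's call between lines depended on which probe set was read. Of the 167 member probe sets 24 passed between the wild types (14.4%), a share near the 13.9% of all probe sets. Of these 24, 10 were the brightest of their gene and 14, from 13 genes, were not. Of the 10 called members 8 had 1 probe set, as did 38 of all 84 members. Kcnh3, an ether-a-go-go relative singled out after its values were seen, had 4. Its brightest differed by 0.10 and another by 0.03, while 1 was higher in 129 by 1.47 (127 against 46.1 in C57BL/6J wild types) and 1 was lower by -2.05 (61.8 in 129 and 259 in C57BL/6J wild types). For Kcnk3 the brightest probe set differed by 0.19, a second by 0.18 and the dimmest over all arrays by -2.70 (30.3 in 129 and 187 in C57BL/6J wild types). For Kcnip2, which encodes a calcium sensor of Shal channels, 1 of 3 probe sets was higher in 129 by 2.05 and the others differed by 0.23 and 0.32.

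**Figure D4:**
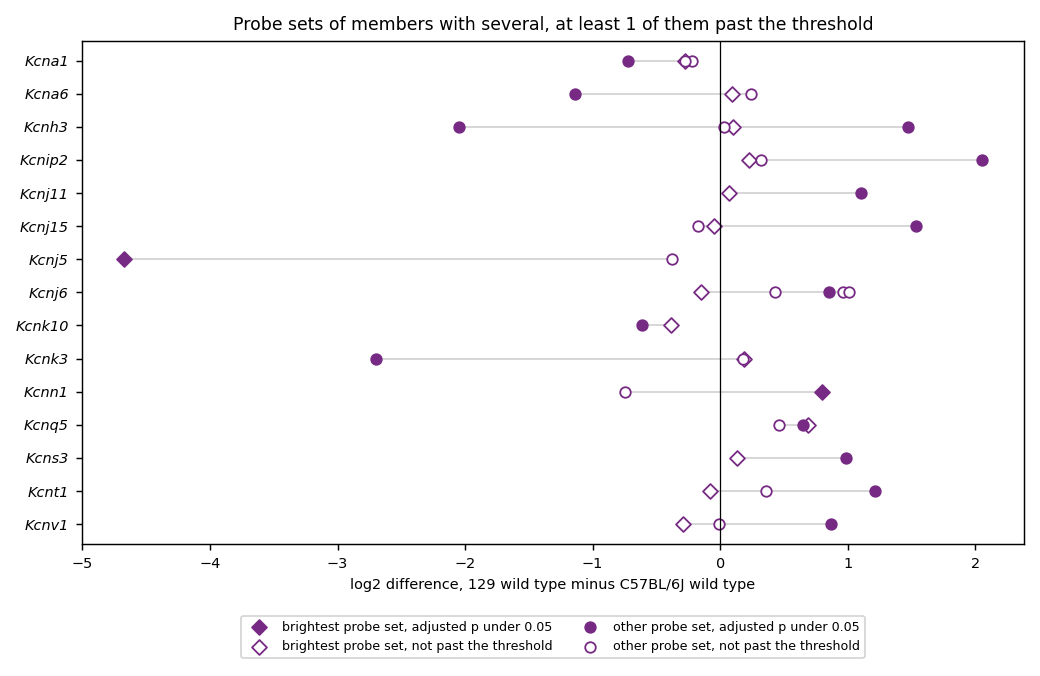
Log2 difference between 129 and C57BL/6J wild types for every probe set of the 15 members that have several and at least 1 past the adjusted threshold; diamonds are the brightest probe set, circles the others, and filled symbols passed. The probe sets of Kcnh3 spread from -2.05 to 1.47 and those of Kcnk3 from -2.70 to 0.19, while the brightest of each lies near 0.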

How the data were processed

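Each of the 12 Affymetrix arrays was hybridised with amplified, biotinylated RNA from geniculate ganglia, per the labels' protocols. The authors deposited 1 intensity per probe set and array, on a linear scale per the values themselves. No source used here states how background and scaling were handled. The deposited lists of 667 (BDNF) and 672 (NT4) probe sets give, per the file headers, a signed fold change (a score, negative where the knockout was lower) and an unadjusted p-value.

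Here log2 of each intensity was taken with no offset, 64 control probe sets were left out, and 4 group means were fitted to 45037 probe sets using lmFit and eBayes of limma 3.58.1 under R 4.3.3 (8 residual and 2.27 prior degrees of freedom). Adjusted p-values are two-sided, by Benjamini-Hochberg over all probe sets. The members' median standard error of a log2 change was 0.21, and the number of arrays limits precision. Simulated data were used to check the fit. Probe sets with several symbols (932) or none (9160) named no gene. All 84 members matched RefSeq's gene table.

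Named were members above 200 in a wild type, those past the threshold, up to 5 higher and 5 lower per contrast by unadjusted p among members above 200, members within 60 measured genes of Bdnf or Ntf5, members in the authors' lists, and up to 4 genes per partner or marker list. Dim members with a low unadjusted p, Kcnh3, Kcnk3 and Kcnip2 were chosen after their values were seen. Members, lists and tests were chosen with earlier results of these data known. The alternatives were quantile normalization, a floor of 20, leaving out probe sets under 100, an intensity trend, a replicate block, each array left out, the 6 arrays of a comparison alone, other thresholds, and the brightest probe set over wild-type arrays.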

Additional observations from a re-analysis of the deposited data

How the results depend on the processing

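No member passed in either knockout or in their difference under any alternative, including each array left out in turn. Over the whole array the number of probe sets past the threshold with 1 array left out was 4 to 10 for BDNF, 0 to 5 for NT4, 1 to 4 for the difference and 4909 to 6440 between the wild types, and with only the 6 arrays compared it was 0 for BDNF and 0 for NT4. Between the wild types, 7 to 12 members passed with 1 array left out. The replicate numbers did not pair the arrays (same-numbered deviations correlated at -0.16 to 0.10). With the replicate number as a block, 0 members passed in the knockouts and 8 between the wild types, where Kcne4 (adjusted p = 0.0602) and Kcnk7 (adjusted p = 0.0547) were lost, and 4, 0, 2 and 5780 probe sets passed for BDNF, NT4, the difference and the wild types. At an intensity threshold of 400, 20 members counted as above it in each wild type, and at 100 there were 55 in 129 and 56 in C57BL/6J. Of 882 values of 44 named log2 changes, 852 kept direction and call, 21 lost the call, 8 gained it and 1 reversed: Kcnd1 in the BDNF knockout was at -0.0261 without BDNF knockout replicate 3 (-0.0261 to 0.8227 with 1 array left out), and the cause was not tested. Single arrays that ended a call are named beside Kcnn1, Kcne4 and Kcnk7. On the 6 wild-type arrays alone, Kcnh5 (adjusted p = 0.0555) and Kcnk7 (adjusted p = 0.0747) did not pass. For 3 members the brightest probe set was another one over the wild-type arrays. Values under 20 have little meaning on these arrays, which bears on Kcnj5 in the NT4 line, Kcnh5 and Kcnv2. The same holds for Kcnd2 and a dim Kcna6 probe set in the BDNF knockout, for Lrrc52 in 129, and for Lmx1a in 129 wild types.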
